A study of Mus musculus with 12 samples.

Results

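The genes of respiratory complex II, of complex III with cytochrome c, and of ATP synthase were followed in adipocytes that carried wild-type or mutant PPARγ, the nuclear receptor that drives fat cell differentiation. The members were the genes of the count table whose symbol begins with Uqcr, Atp5, Sdha, Sdhb, Sdhc or Sdhd, together with Cyc1, Cycs and Bcs1l. Pseudogenes and genes under 10 counts over all libraries were left out. The rule found 36 of the 55573 genes, since 1 of 37 rows, a second identifier for Atp5o, had no counts. They were 4 subunits and 4 assembly factors of complex II, 10 genes of complex III and cytochrome c, Bcs1l, which assembles complex III, and 17 subunits of ATP synthase. Symbols are given as in the table. The cells were the stromal vascular fraction, rich in fat cell precursors, of subcutaneous fat of C57BL/6 mice, differentiated in culture. Both PPARγ alleles of the donor mice were wild type (WT), T166A (TA), which cannot be phosphorylated at this threonine, or T166D (TD), which mimics the phosphorylated state. The mutations are germline and so are present in every cell type. All cultures had 4 days with 850 nM insulin, 1 nM triiodothyronine, 0.5 mM IBMX, 125 nM indomethacin and dexamethasone, whose dose has different units in the labels and the methods. Insulin and triiodothyronine were kept until harvest on day 8. Each genotype had 4 libraries, named here by genotype and replicate number (WT1 to WT4). No source used here states whether these came from separate animals or cultures, so the p-values measure the spread between libraries, which may be technical.

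Complex II (succinate dehydrogenase) takes electrons from succinate in the citric acid cycle and passes them to ubiquinone. Complex III (the cytochrome bc1 complex) moves them from ubiquinol to cytochrome c, the small soluble carrier that delivers them to complex IV, and pumps protons across the inner mitochondrial membrane as it does so. ATP synthase lets the protons flow back through a rotating ring and makes ATP. Thermogenic fat cells are known for mitochondria rich in the complexes that carry electrons. Complex II is encoded wholly in the nucleus. Mitochondrial DNA encodes a single subunit of complex III, mt-Cytb, and mt-Atp6 and mt-Atp8 of ATP synthase, and the other subunits of both are nuclear.

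The members were lower in TD adipocytes. All 36 had a negative log2 fold change against WT, and 30 were called lower by edgeR's quasi-likelihood test (adjusted p under 0.05). Of the 15117 genes tested, 14.2% were lower and 15.1% higher. None of the members was higher in TD. The median log2 fold change of the members was -0.58, a median change of -33.2%, beside 0.011 over all genes tested. In TA 0 members were called lower and 0 higher than in WT by edgeR (4.41% and 6.72% of all genes), and DESeq2's Wald test also called none. An unadjusted p under 0.05 was reached by 4 members, all lower. The median in TA was -0.10 beside -0.0056 over all genes. Against TA, TD had 28 members lower and none higher (9.37% and 7.33% of all genes), with a median of -0.48 beside 0.023 over all genes. The TD libraries lay entirely below the WT libraries for 30 members (16.4% of all genes) and entirely below the TA libraries for 28 (10.6%). The TA libraries lay entirely below the WT libraries for 0 members (5.85%).

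**Figure D1:**
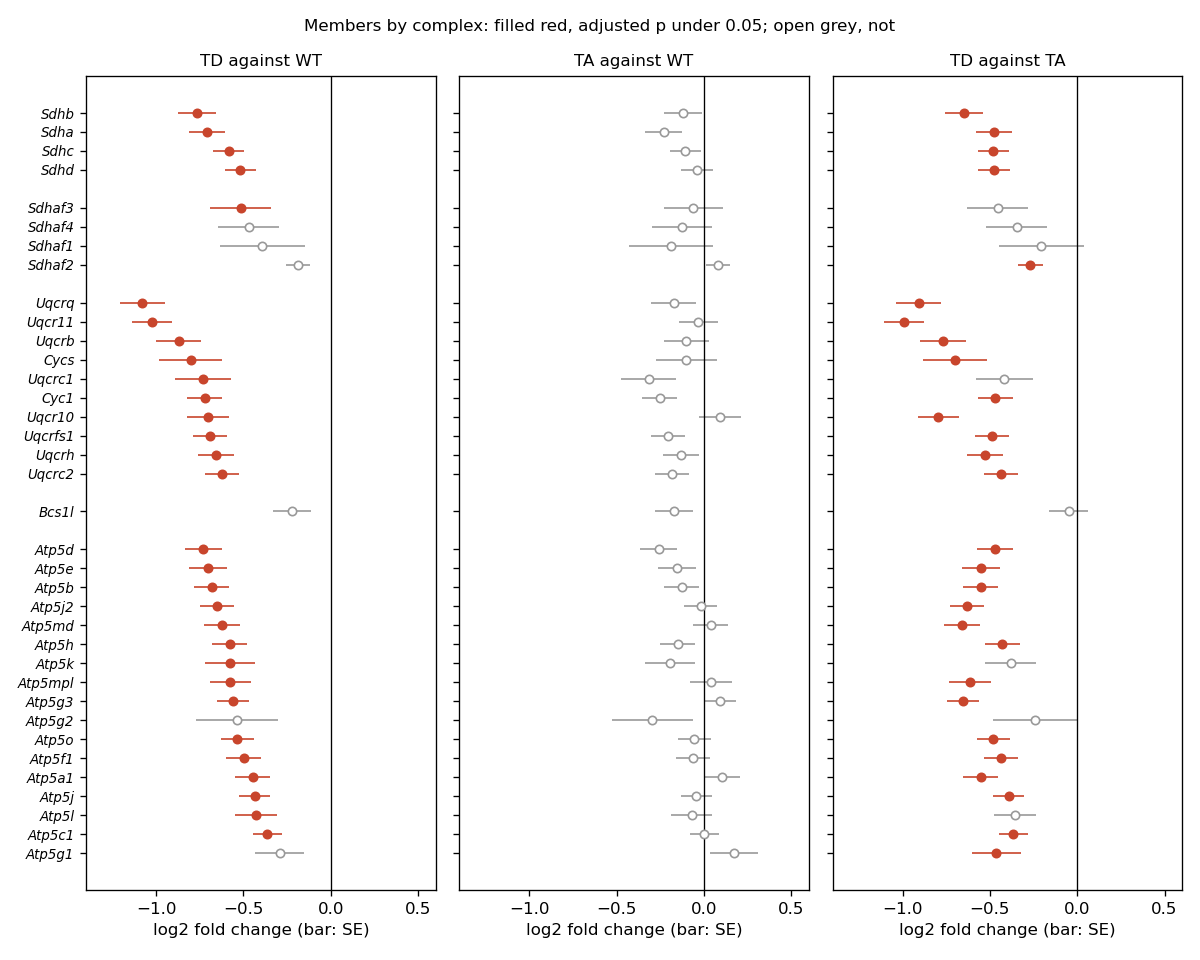
Log2 fold change and its standard error for the 36 members in the 3 comparisons, 1 gene a line, set apart by complex II subunits, complex II assembly factors, complex III with cytochrome c, Bcs1l and ATP synthase. Filled red points passed an adjusted p of 0.05, and each lies left of 0: 30 members at left, 0 in the middle and 28 at right.

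Summed over the members, the level fell by 36.4% from WT to TD. CPM stands for the counts of a gene relative to a library's total after TMM adjustment, which corrects for differences in composition. The sum was 9241, 7893, 7799.8 and 8591 CPM in WT, 7479.8, 8851, 6595 and 7888 in TA and 5776, 5610.1, 5115 and 4836 in TD. Each TD library was below each WT and TA library, while TA and WT overlapped. As a share of all reads counted, the members took 0.825% ± 0.0552 (SD, n = 4) of a WT library, 0.753% ± 0.0791 of a TA library and 0.551% ± 0.0482 of a TD library. From WT to TD the mean sum fell by 37.2% for the complex II subunits, fell by 40.9% for complex III with cytochrome c and fell by 34.7% for ATP synthase. Within WT, WT1 had the highest sum, and within TA the sums ran from 6595 in TA3 to 8851 in TA2.

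**Figure D2:**
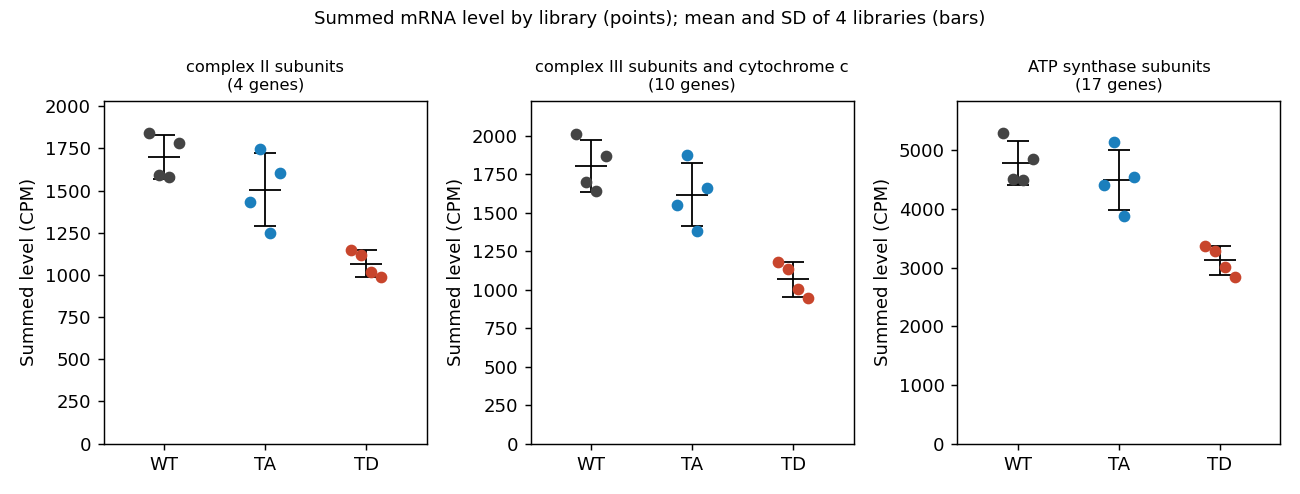
Summed level in CPM of the 4 complex II subunits, the 10 genes of complex III with cytochrome c and the 17 ATP synthase subunits, each point 1 library, with bars for the mean and SD of 4 libraries. In each panel the 4 TD points lie below all WT and TA points, as for complex II with 987 to 1149.8 CPM in TD and 1246 to 1841 CPM in the other libraries.

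Other cell types moved with genotype as well. Of 11 adipocyte markers 9 were lower in TD than in WT and 0 higher (median log2 fold change -0.53), and Pparg itself, at 373, 331, 344 and 368 CPM in WT, 353, 428, 322 and 391 in TA and 258, 257, 223 and 210.1 in TD, was among them. A point mutation leaves no mark in a count of reads, so the genotype labels could not be checked against the counts. All 12 skeletal muscle markers were higher in TD than in WT (median 4.36). Their summed levels were 6.34 to 15.7 CPM in WT, 23.1 to 86.2 CPM in TA and 22.3 to 322 CPM in TD, highest in TD3 and TD4, and Ckm was at 0 in 3 WT libraries. Of the preadipocyte and fibroblast markers 5 of 7 tested were higher and of the endothelial markers 4 of 5, whereas 0 of 7 macrophage markers passed the test in either direction. Against TA, TD had 9 adipocyte markers lower and 1 higher, and higher were 6 muscle markers, 2 of 7 macrophage markers (median 0.98, all 7 positive), 2 of 5 endothelial and 2 of 7 fibroblast markers. TA against WT gave 7 muscle, 4 fibroblast and 3 endothelial markers higher, 1 adipocyte marker higher and 1 lower, and 0 macrophage markers in either direction (median -0.71). The part of these shifts in the results below was not tested, and in bulk RNA fewer adipocytes and less of a transcript per adipocyte cannot be told apart. TD3 and TD4 hold the most muscle marker RNA, so the fit was repeated with TD1 and TD2 as the only TD libraries, a choice made after seeing the data. TD1 and TD2 still had muscle markers summed to 22.3 and 84.8 CPM, beside at most 15.7 in WT. Their adipocyte markers summed to 12719 and 12654 CPM, beside at least 16032 in WT. In the repeated fit 22 members were called lower than in WT with a median of -0.51, and 9 lower than in TA with a median of -0.40. In that fit 4.33% and 2.86% of the 15673 genes tested were lower in these comparisons, so calls over all genes fell in number as well. Those 9 were Sdhb, Uqcrq, Uqcrb, Uqcr10, Uqcr11, Atp5a1, Atp5g3, Atp5j2 and Atp5md.

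The members' level was also set against the adipocyte markers of the same library, a ratio chosen after the values had been seen and given without a test. For every 100 CPM of the 11 markers the members had 48.8, 49.2, 47.5 and 46.5 CPM in WT, 41.8, 40.7, 41.5 and 39.2 in TA and 45.4, 44.3, 45.3 and 46.0 in TD. The mean of TD was 5.73% below that of WT, where the members' sum fell by 36.4%. In this version of the ratio the TA libraries were below all others. The markers' own sum changed by 8.27% from WT to TA and by -32.5% from WT to TD. The members' sum changed by -8.08% from WT to TA, so both parts of the ratio moved. By complex, TD was lower than WT by 6.90% for complex II, 12.6% for complex III with cytochrome c and 3.28% for ATP synthase. For ATP synthase the TD and WT libraries overlapped. In the same order TA was lower than WT by 18.2%, 17.1% and 13.2%. The ratio rests on abundant genes. Without Adipoq, Cfd and Fabp4 among the markers it was 108 ± 3.23 in WT (SD, n = 4), 93.9 ± 6.90 in TA and 102 ± 2.72 in TD. There TA, at 88.4 to 103.5, overlapped TD, at 98.4 to 104.6, and TD overlapped WT, at 103.6 to 111.3. A difference of mean log2(CPM + 1), which gives each gene equal weight, members minus markers, came to -3.29 ± 0.048 in WT, -3.36 ± 0.095 in TA and -3.35 ± 0.0050 in TD. By this measure TA overlapped both WT and TD.

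**Figure D3:**
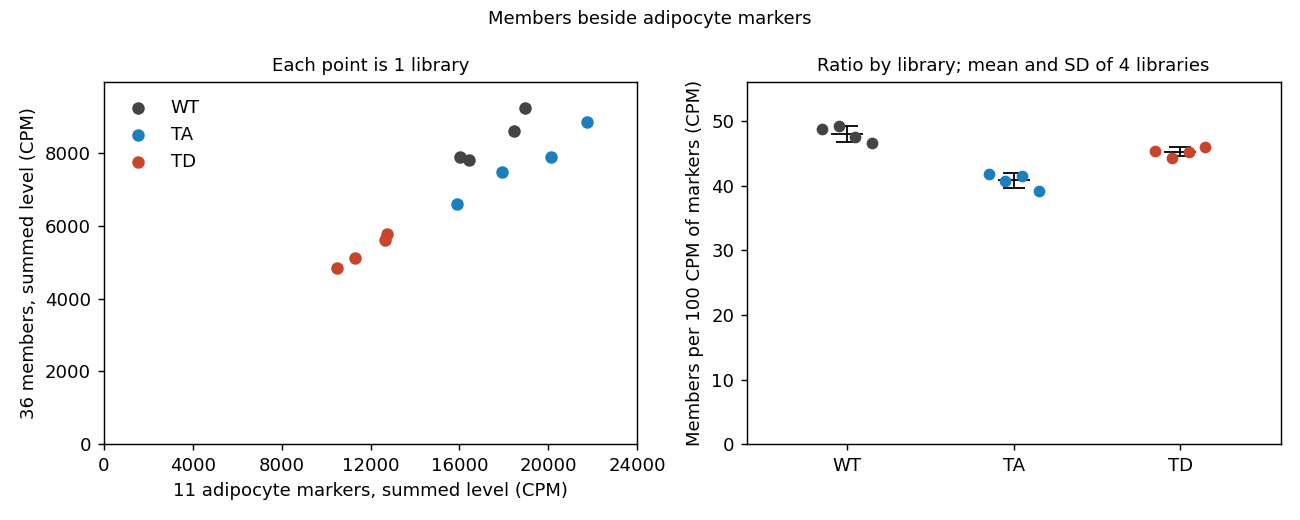
Left, summed level in CPM of the 36 members against that of the 11 adipocyte markers, each point 1 library, and right, the members' CPM per 100 CPM of markers, with bars for the mean and SD of 4 libraries. TD lies low on both axes at left, and at right TA is lowest at 39.2 to 41.8, TD at 44.3 to 46.0 and WT at 46.5 to 49.2.

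The 4 subunits of complex II were all lower in TD than in WT, with a median log2 fold change of -0.65. Sdha, the flavoprotein that oxidizes succinate (chr13:74322254-74350280 in GRCm38), had 1131, 956, 973 and 1095 CPM in WT, 838, 1035, 722 and 943 in TA and 673, 672, 607 and 590.0 in TD. Every TD library was below every WT and TA library. The log2 fold change was -0.71 ± 0.10 (adjusted p = 0.000214) by edgeR against WT and -0.48 ± 0.10 (adjusted p = 0.00563) against TA. Sdhb carries the iron-sulfur clusters that hand the electrons on, and its levels were 220.5, 192, 190.1 and 211 CPM in WT, 172, 225, 150.1 and 201 in TA and 133, 125, 115 and 105 in TD. It had the largest decrease of the complex against WT, a change of -41.2%, with a log2 fold change of -0.77 ± 0.11 (adjusted p = 0.000198) by edgeR. Against TA it was again the lowest at -0.65 ± 0.11 (adjusted p = 0.000999). Sdhc and Sdhd anchor the enzyme in the membrane and form its ubiquinone site. Sdhd, the least changed subunit, had 252, 222, 214 and 249 CPM in WT, 219.5, 252, 192 and 249 in TA and 177, 168, 153 and 157 in TD. Its TD libraries were still below all others, with a log2 fold change of -0.52 ± 0.091 (adjusted p = 0.000687) by edgeR against WT. Sdhc was in between at -0.59. In TA the subunits ran from -0.23 for Sdha (adjusted p = 0.171, edgeR) to -0.039 for Sdhd, and the TA libraries overlapped those of WT for all 4.

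Of the 4 assembly factors of complex II, TD had 1 below WT and 1 below TA by the test. Sdhaf3, which helps the iron-sulfur subunit mature, passed against WT, at -0.52 ± 0.17 (adjusted p = 0.0334) by edgeR. It no longer passed when WT1, WT3, WT4, TD2, TD3 or TD4 was left out in turn (adjusted p up to 0.107), with library totals in place of TMM (0.0650) or with no filter on low counts (0.0676). Sdhaf2, which adds FAD to Sdha, had -0.19 (adjusted p = 0.0503, edgeR) against WT with no overlap of the libraries. Against TA it was called lower at -0.27 (adjusted p = 0.0149), a call lost without TA2 (adjusted p = 0.0674), with library totals (0.0587) and with no filter (0.0644). Sdhaf4, a chaperone of the flavinated Sdha, had -0.47 (adjusted p = 0.0509) and Sdhaf1, which serves the clusters of Sdhb, -0.39 (adjusted p = 0.244) against WT. Sdhaf4 passed in the same comparison without TA2, TA4 or TD1 (adjusted p of 0.0422 to 0.0497), and so did Sdhaf2 without TA2 or TA4 (0.0443 and 0.0285). With all libraries kept, DESeq2's Wald test called both (adjusted p of 0.0348 for Sdhaf4 and 0.0350 for Sdhaf2). Both also passed with DESeq2's size factors in edgeR (0.0467 and 0.0413), Sdhaf4 with the replicate block (0.0206) or no filter (0.0139), and Sdhaf2 with WT and TD fitted alone (0.0350). Exons of E130208F15Rik on the other strand cover 69.6% of the exon bases of Sdhaf1, and those of Gm26524 cover 12.7% of Sdhaf4. The strand setting of the counting is not given in the sources used here, so reads of the 2 strands cannot be told apart.

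Complex III and cytochrome c had the lowest median of the 3 groups, -0.73 against WT, and all 10 genes were called lower. Uqcrq, a small subunit near the quinone site (chr11:53427922-53430831), was the most changed member, by -52.7%. Its levels were 349, 274, 249 and 311 CPM in WT, 254, 310.0, 216 and 269 in TA and 169.8, 143, 129 and 118 in TD, without overlap between TD and either other genotype. The log2 fold change was -1.08 ± 0.13 (adjusted p = 8.02e-05) by edgeR against WT and -0.91 ± 0.13 (adjusted p = 0.000239) against TA. Uqcr11, another small subunit (chr10:80402997-80406830), was nearly as far from WT, at -1.02 ± 0.11 (adjusted p = 5.67e-05) by edgeR. Against TA it had the largest change of all members, -49.7%, at -0.99 ± 0.11 (adjusted p = 3.79e-05). The Uqcr11 levels of 109, 84.0, 73.1 and 87.6 CPM in WT, 79.4, 96.7, 75.4 and 94.5 in TA and 47.9, 43.6, 43.2 and 39.5 in TD show TD libraries that are all below the other 8, while WT1 is the highest of all. Uqcrb followed at -0.87 against WT, Uqcr10 at -0.70 and Uqcrh, the acidic hinge protein, at -0.66. Uqcr10 was the 1 gene of this group with a positive value in TA, 0.092 (adjusted p = 0.694, edgeR), from levels of 142, 111, 105 and 117 CPM in WT, 112, 146, 102 and 146 in TA and 78.3, 77.3, 68.3 and 67.8 in TD.

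The subunits that carry the electrons changed by similar amounts. Uqcrfs1, the Rieske iron-sulfur protein, had 352, 329, 316 and 356 CPM in WT, 285, 343, 249 and 294 in TA and 227, 222, 208 and 178 in TD. Its log2 fold change was -0.69 ± 0.10 (adjusted p = 0.000185) by edgeR against WT and -0.49 ± 0.10 (adjusted p = 0.00321) against TA, with TD below all other libraries. Cyc1, cytochrome c1, accepts the electron from the Rieske protein. Its levels were 261, 218, 209 and 239.7 CPM in WT, 183, 223, 161 and 212 in TA and 152, 143, 134 and 134 in TD, with a log2 fold change of -0.72 ± 0.10 (adjusted p = 0.000174) by edgeR against WT and -0.47 ± 0.10 (adjusted p = 0.00515) against TA. In TA, Uqcrfs1 at -0.21 ± 0.10 (adjusted p = 0.193) and Cyc1 at -0.25 ± 0.10 (adjusted p = 0.119) were 2 of the 4 members with an unadjusted p under 0.05 against WT. Both overlapped the WT libraries. Without TA2 the 4 members Atp5d, Cyc1, Sdha and Uqcrfs1 were called lower in TA (adjusted p of 0.0437 to 0.0479 by edgeR), where 4.91% of all genes were.

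The core proteins Uqcrc1 and Uqcrc2 face the matrix. Uqcrc2 had 437, 396, 408 and 454 CPM in WT, 365, 437, 318 and 372 in TA and 299, 300.0, 256 and 247 in TD. Its TD libraries were below all others, with the smallest change of the group against WT, -0.62 ± 0.10 (adjusted p = 0.000327) by edgeR. Exons of Pdzd9 on the other strand cover 19.8% of its exon bases. Uqcrc1, its partner in the complex (chr9:108936633-108949623), was counted at only 8.41, 7.45, 6.64 and 8.00 CPM in WT, 5.79, 7.13, 4.95 and 6.61 in TA and 4.88, 4.64, 5.22 and 3.58 in TD. It was lower in TD than in WT at -0.73 ± 0.16 (adjusted p = 0.00294) by edgeR, and had the lowest value of the group in TA at -0.32 ± 0.16 (adjusted p = 0.225). TD did not pass against TA at -0.42 ± 0.16 (adjusted p = 0.0891), where the libraries overlapped, and it passed without TA3 (adjusted p = 0.0369). Cycs, the cytochrome c of somatic cells, was counted at 14.8, 14.9, 17.5 and 14.7 CPM in WT, 17.0, 17.0, 14.97 and 8.84 in TA and 11.4, 8.79, 7.61 and 7.80 in TD. TD was below WT, at -0.80 ± 0.18 (adjusted p = 0.00368) by edgeR, but overlapped TA through TA4. Against TA the log2 fold change was -0.70 ± 0.18 (adjusted p = 0.0154), and the call was lost without TA1, TA2, TD3 or TD4 (adjusted p of 0.0522 to 0.0557). Sequence windows of 100 bases were shared with other annotated genes for 22.6% of the Cycs transcript, so its counts are uncertain. Bcs1l inserts the Rieske protein into the complex as the last steps of assembly take place. Its levels of 21.3, 18.1, 16.1 and 20.6 CPM in WT, 17.3, 18.8, 14.8 and 16.7 in TA and 15.8, 16.7, 17.9 and 14.9 in TD overlapped between all genotypes. The log2 fold change was -0.22 ± 0.11 (adjusted p = 0.146) by edgeR against WT and -0.048 ± 0.11 (adjusted p = 0.805) against TA, the smallest of all members there.

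ATP synthase had a median of -0.56 against WT, and 15 of its 17 subunits were called lower. In the catalytic F1 head, Atp5b, the β subunit that makes ATP (chr10:128083273-128090391), was the most abundant member. It had 2738, 2451, 2434 and 2607 CPM in WT, 2283, 2750.2, 1966 and 2361 in TA and 1712, 1674, 1529 and 1466 in TD. All TD libraries were below all others, with a log2 fold change of -0.68 ± 0.10 (adjusted p = 0.000211) by edgeR against WT and -0.55 ± 0.10 (adjusted p = 0.00152) against TA. Atp5a1, the α subunit that alternates with β in the head, was counted at 23.5, 21.9, 21.3 and 23.8 CPM in WT, 21.5, 28.8, 21.8 and 25.4 in TA and 17.3, 15.9, 16.9 and 16.3 in TD. TD was again below both, at -0.45 ± 0.10 (adjusted p = 0.00349) by edgeR against WT and -0.55 ± 0.10 (adjusted p = 0.00162) against TA. Atp5c1 is the γ shaft that turns inside the head, and it had one of the smallest changes against WT, -0.36 ± 0.084 (adjusted p = 0.00451) by edgeR. Atp5d and Atp5e, the δ and ε subunits at the foot of the shaft, had the largest changes of the head. The Atp5d levels were 356, 282, 283 and 314 CPM in WT, 251, 296, 209 and 276 in TA and 198, 191, 189 and 167 in TD, with TD below all others. Its log2 fold change was -0.73 ± 0.10 (adjusted p = 0.000195) by edgeR in TD and -0.26 ± 0.10 (adjusted p = 0.126) in TA, both against WT. Atp5e was at -0.70 in TD against WT.

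The peripheral stalk, which holds the head still while the ring turns, fell as a set of 4. Against WT its log2 fold changes were -0.58 for Atp5h (subunit d), -0.54 for Atp5o (the oligomycin sensitivity protein), -0.50 for Atp5f1 (subunit b) and -0.44 for Atp5j (coupling factor F6), all with adjusted p at or below 0.00176 by edgeR. All 4 were also lower against TA, from -0.48 for Atp5o to -0.39 for Atp5j. Atp5o shares 12.3% of its exon bases with the second Atp5o identifier on its own strand and 35.6% with genes on the other strand. For Atp5j 12.7% lies opposite Gabpa, and 11.5% of the Atp5h transcript windows occur in other genes.

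The accessory subunits in the membrane, several of which hold the enzyme in dimers, were also lower in TD than in WT. Values were -0.65 for Atp5j2, -0.62 for Atp5md, -0.58 for Atp5k, -0.57 for Atp5mpl and -0.43 for Atp5l. Atp5md had the largest change of the enzyme against TA, -0.66 ± 0.10 (adjusted p = 0.00047) by edgeR, from levels of 63.8, 47.8, 49.5 and 51.8 CPM in WT, 54.3, 60.6, 49.5 and 54.2 in TA and 37.6, 37.5, 33.4 and 29.7 in TD. Its TA libraries were within the WT range, and TD was below both. Atp5k overlapped the WT libraries, with WT2 at 18.2 CPM and TD2 at 18.4 CPM. Neither Atp5k (adjusted p = 0.0823) nor Atp5l (adjusted p = 0.0516) passed against TA by edgeR. The Atp5l call against WT was lost without WT1 (log2 fold change -0.30, adjusted p = 0.0608), which had 57.5 CPM beside 41.3 to 43.1 CPM in the other WT libraries. Without WT1 or WT2 Atp5k passed against TA (adjusted p of 0.0454 and 0.0378), and Atp5l did so without WT1, TA3 or TD1 (0.0261 to 0.0289). With all libraries kept, Atp5l passed against TA by DESeq2's Wald test (adjusted p = 0.0346), and by edgeR with the replicate block (0.0431), with TA and TD fitted alone (0.0440) and with no filter (0.00497). Atp5k passed with these genotypes alone (0.0305) and with no filter (0.0172).

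The proton-driven ring is built of c subunits, and the 3 genes Atp5g1, Atp5g2 and Atp5g3 encode the same mature protein behind different targeting peptides. Nearly all of the counts were of Atp5g3, with 96.1% ± 0.136 in WT, 96.2% ± 0.592 in TA and 95.5% ± 0.558 in TD (SD, n = 4). Its levels were 405, 306, 308 and 347 CPM in WT, 370.1, 391, 325 and 372 in TA and 239, 232, 239 and 217 in TD. TD was below all other libraries, with a log2 fold change of -0.56 ± 0.092 (adjusted p = 0.000428) by edgeR against WT and -0.65 ± 0.092 (adjusted p = 0.00022) against TA. Atp5g1 had 12.2, 8.99, 8.47 and 9.75 CPM in WT, 10.8, 9.10, 11.8 and 12.7 in TA and 7.83, 8.84, 8.09 and 7.45 in TD. It was the least changed subunit of the enzyme against WT at -0.29 ± 0.14 (adjusted p = 0.132) by edgeR. Against TA it was called lower at -0.46 ± 0.14 (adjusted p = 0.0329), a call lost without TA1, TA3, TA4, TD1, TD3 or TD4 (adjusted p up to 0.0984). With all libraries kept it was also lost under the replicate block (0.0520, edgeR) and with library totals (0.0686). Atp5g2 was the scarcest, at 3.37, 3.72, 4.31 and 4.60 CPM in WT, 3.86, 2.89, 2.50 and 3.78 in TA and 1.65, 3.72, 2.66 and 2.99 in TD. It overlapped in all comparisons and had -0.54 ± 0.24 (adjusted p = 0.0993) by edgeR in TD and -0.30 ± 0.23 (adjusted p = 0.479) in TA against WT. TD passed against WT without TD2 (adjusted p = 0.0460). For Atp5g2 34.7% of the transcript windows occur in other genes, so its counts are uncertain. For Atp5g1 5.92% do, and this gene too was set among the members of uncertain counting.

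Atp5g1 made up 2.91%, 2.82%, 2.64% and 2.70% of the summed counts of these genes in the WT libraries, 2.81%, 2.26%, 3.48% and 3.27% in TA and 3.15%, 3.62%, 3.23% and 3.28% in TD. The TD share was higher than that of WT in all 4 libraries, by 0.551 percentage points (two-sided p = 0.0286 by an exact permutation test). This is the smallest p the design allows, and adjusted over 3 comparisons it was 0.0857 (exact permutation). TA differed from WT by 0.186 points (exact permutation p = 0.514) and TD from TA by 0.365 points (exact permutation p = 0.257). No share thus passed the adjusted threshold.

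**Figure D4:**
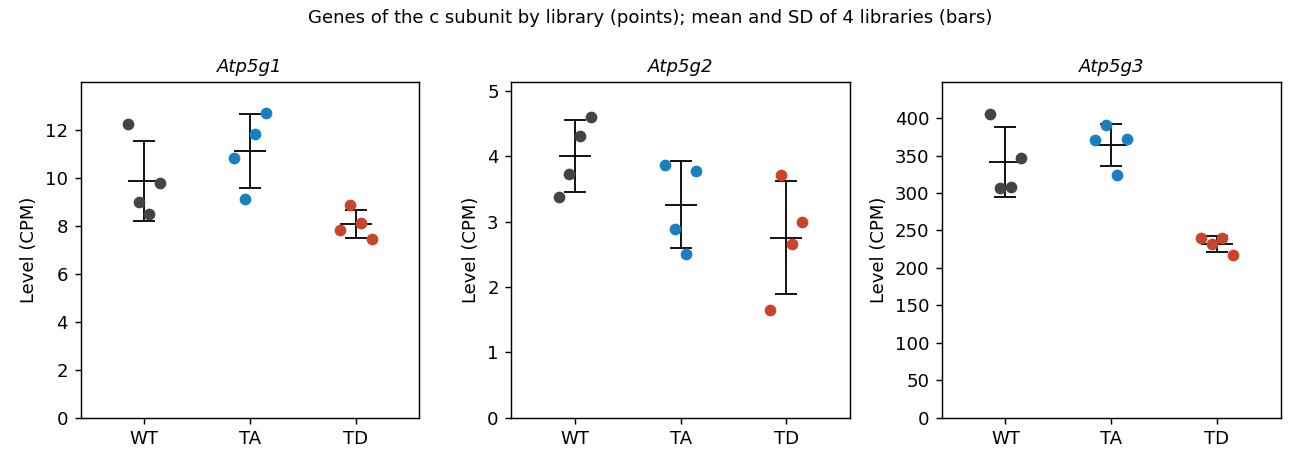
Level in CPM of the 3 genes that encode the c subunit, each point 1 library, with bars for the mean and SD of 4 libraries. Atp5g3 is the gene whose TD libraries, at 217 to 239 CPM, are clear of WT and TA, whereas those of Atp5g1 and Atp5g2 overlap WT.

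Levels between genes were compared as CPM per 1000 exon bases. In WT, Atp5b led with 604 ± 33.9 (SD, n = 4), beyond the spread of the next genes. Sdha at 252 ± 21.2 and Uqcrfs1 at 248 ± 14.0 did not differ beyond their spread. Then came Uqcr10 at 203 ± 27.4 and Sdhd at 190.4 ± 15.5, which overlapped, and 6 genes between 151 and 166 that overlapped one another: Uqcrc2, Atp5c1, Uqcrq, Atp5d, Atp5g3 and Uqcrh. The partners of 1 complex were not counted at like levels. Atp5a1 had 7.22 ± 0.391 and Uqcrc1 1.84 ± 0.185, against Atp5b and Uqcrc2 at 166 ± 10.4, although the subunits occur in equal numbers in the enzyme. In GENCODE M21 Uqcrc1 overlaps no exon of another gene, 4.12% of Atp5a1 lies opposite Haus1, and neither shares a window with another gene. The cause of the low counts was not tested. In TD, Atp5b again led with 377 ± 27.6, followed by Sdha at 154 ± 10.5, Uqcrfs1 at 153 ± 16.0 and Sdhd at 133 ± 8.73. Uqcrq, at rank 8 in WT with 162 ± 23.9, had 76.4 ± 12.2 in TD.

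**Figure D5:**
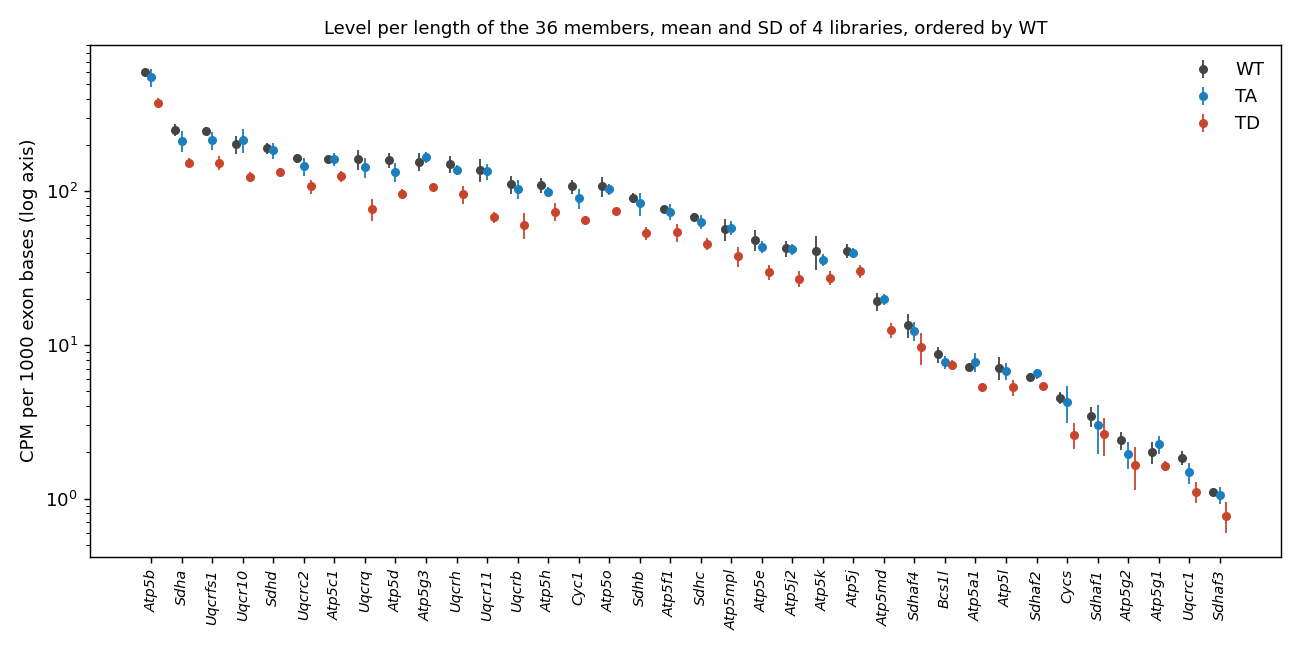
Level per length of the 36 members as CPM per 1000 exon bases on a log axis, with points for the mean and bars for the SD of 4 libraries, ordered from left to right by WT. Atp5b is highest in all 3 genotypes, at 604 in WT and 377 in TD, the TD points lie under the WT points, and Sdhaf3 is lowest at 1.10 in WT.

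Promoters of the members are shown because genes of these complexes moved together and because NRF1, a factor known to bind genes of the respiratory chain, has a recognizable site. RefSeq promoters (GRCm38.p6), from 250 bases before to 50 after a transcript start, were found for 29 of the 36 members, and Atp5a1, Atp5mpl, Cyc1, Sdhc, Uqcrb, Uqcrc2 and Uqcrq were not matched. On either strand, the NRF1 core GCGCANGCG was present in 14 of 29 members (48.3%), beside 7.03% of 27025 genes with a promoter and 14.6% of 10870 tested in these libraries. The ETS site ACTTCCGG was in 4 (13.8%, beside 8.68% of the tested genes), the YY1 site AAGATGGCG in 2, Atp5j and Atp5j2 (6.90%, beside 3.32%), and the ERR site TNAAGGTCA in 2, Atp5g3 and Sdhd (6.90%, beside 0.902%). The DR1 element, a pair of AGGTCA half-sites a single base apart to which PPARγ binds, was in 0 members and in 0.046% of the tested genes. The ERR site holds the same half-site, so those searches overlap. Only an exact DR1 match counted, and 5 of the 10870 tested genes had one. So rare a match could hardly occur among 29 members, and its absence does not bear on PPARγ binding. A match is a description of the letters in the window and not of binding. Whether a match goes with the size of change was not tested. In TD against WT, Sdhb at -0.77 had none of the 5 motifs. An NRF1 core was present in Atp5c1 at -0.36 as well as in Uqcr11 at -1.02. Of the members with an NRF1 core, 4 belong to complex II (Sdha, Sdhaf3, Sdhaf4 and Sdhd), 3 to complex III with cytochrome c (Cycs, Uqcr11 and Uqcrc1) and 7 to ATP synthase (Atp5c1, Atp5g2, Atp5g3, Atp5h, Atp5k, Atp5l and Atp5o). Printed are 4 promoters. That of Uqcr11 (chr10:80406772-80407071 on the minus strand) has an ETS site and an NRF1 core, and the gene changed most against TA. That of Sdha (chr13:74350191-74350490 on the minus strand) has 3 NRF1 cores. That of Atp5g3 (chr2:73911277-73911576 on the minus strand) has an ERR site and an NRF1 core. That of Bcs1l (chr1:74588039-74588338 on the plus strand), a gene with little change, has an ETS site. Each is written in the direction of its gene, with the matches in capitals.
Uqcr11: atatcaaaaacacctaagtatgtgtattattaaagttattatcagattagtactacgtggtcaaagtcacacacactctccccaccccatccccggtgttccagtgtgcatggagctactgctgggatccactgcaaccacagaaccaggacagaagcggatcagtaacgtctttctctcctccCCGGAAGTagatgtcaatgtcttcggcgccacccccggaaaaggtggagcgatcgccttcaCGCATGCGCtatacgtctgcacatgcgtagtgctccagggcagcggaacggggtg
Sdha: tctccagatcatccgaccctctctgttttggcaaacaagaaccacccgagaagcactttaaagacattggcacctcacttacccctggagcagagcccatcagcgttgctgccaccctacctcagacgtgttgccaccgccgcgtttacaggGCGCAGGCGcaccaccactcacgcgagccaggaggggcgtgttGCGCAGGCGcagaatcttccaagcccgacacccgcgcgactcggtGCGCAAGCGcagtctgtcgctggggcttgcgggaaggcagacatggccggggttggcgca
Atp5g3: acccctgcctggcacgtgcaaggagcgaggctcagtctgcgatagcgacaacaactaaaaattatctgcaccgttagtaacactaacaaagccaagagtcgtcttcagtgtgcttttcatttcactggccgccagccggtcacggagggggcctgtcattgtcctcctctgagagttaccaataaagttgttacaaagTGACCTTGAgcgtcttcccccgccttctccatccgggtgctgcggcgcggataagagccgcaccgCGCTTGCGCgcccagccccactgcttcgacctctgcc
Bcs1l: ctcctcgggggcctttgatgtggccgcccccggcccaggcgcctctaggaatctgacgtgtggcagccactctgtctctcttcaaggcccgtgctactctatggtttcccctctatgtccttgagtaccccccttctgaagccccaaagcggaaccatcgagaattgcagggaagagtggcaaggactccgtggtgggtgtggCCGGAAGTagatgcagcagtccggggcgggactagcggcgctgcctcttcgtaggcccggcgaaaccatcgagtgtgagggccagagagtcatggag

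Genes that build or complete the complexes were read beside the members. Of 5 further assembly factors of complex III 4 were lower in TD than in WT and 0 higher, from -0.77 for Uqcc2, which helps the synthesis of cytochrome b, to -0.23 for Ttc19 (adjusted p = 0.0717, edgeR). Of 7 assembly and control factors of ATP synthase 5 were lower and 0 higher. Fmc1, an assembly factor of the F1 head, was lowest, at -1.02 ± 0.20 (adjusted p = 0.00165) by edgeR. Atpif1, which blocks ATP synthase from running backwards, was highest. Its levels were 28.5, 25.5, 22.9 and 26.1 CPM in WT, 27.8, 28.5, 28.2 and 27.7 in TA and 27.6, 25.8, 21.3 and 23.9 in TD, and TD overlapped WT with a log2 fold change of -0.065 ± 0.092 (adjusted p = 0.639) by edgeR. Atpaf2, a chaperone of the α subunit, was the 1 gene of these lists that was higher in TA than in WT. Its levels were 54.6, 55.8, 55.3 and 52.1 CPM in WT, 69.5, 76.4, 61.4 and 65.8 in TA and 45.0, 49.5, 43.8 and 42.1 in TD, without overlap between any 2 genotypes. Against WT the log2 fold change was 0.33 ± 0.077 (adjusted p = 0.0109) by edgeR in TA and -0.27 ± 0.077 (adjusted p = 0.0146) in TD. Hccs, which attaches haem to cytochrome c, did not pass against WT in TD at -0.24 ± 0.093 (adjusted p = 0.0638), and Cyct, the cytochrome c of testis, was too low to be tested.

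Of the mitochondrially encoded partners, mt-Cytb, the cytochrome b of complex III, had 6611, 6302, 6135 and 6342 CPM in WT, 6119.8, 6547, 4732 and 4356 in TA and 4168, 4097, 3187 and 3272 in TD. TD was below WT and TA, with a log2 fold change of -0.79 ± 0.13 (adjusted p = 0.00047) by edgeR against WT. Subunit a of ATP synthase, mt-Atp6, was lower in TD than in WT at -0.55 ± 0.17 (adjusted p = 0.0238), and mt-Atp8 did not pass at -0.39 ± 0.48 (adjusted p = 0.577), with at most 1.35 CPM in any library. The mean of mt-Atp6 in WT was only 11.2 CPM, beside 6348 CPM for mt-Cytb, so its counts are uncertain. The cause of the low count was not tested. The nuclear subunits and the mitochondrial subunit of complex III were thus both lower. Against TA, of the 3 mitochondrial genes only mt-Cytb passed, at -0.56 ± 0.13 (adjusted p = 0.00818). The other 2 respiratory complexes gave 34 of 35 tested subunits of complex I lower in TD than in WT (median -0.69) and 13 of 16 of complex IV (median -0.76), and 34 of 35 (median -0.61) and 13 of 16 (median -0.69) against TA. Differences between complexes were not tested.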

How the data were processed

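RNA of 12 libraries, 4 for each of WT, TA and TD, was analysed. The authors aligned the reads to GRCm38 and deposited read counts per gene without normalization. The submitters' processing notes list bcl2fastq 2.17.1.14, cutadapt 1.9.1, HISAT2 2.0.1 and HTSeq 0.6.1, and the strand setting is not given in the sources used here. The 12 files of single libraries were equal to the table, and depth ran from 16553324 to 20324286 counts, which limits precision for members near 10 CPM.

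The low-count filter filterByExpr (minimum count 10, minimum total 15) left 15117 genes, which were TMM-normalized (factors 0.957 to 1.04) in edgeR 4.0.16 (limma 3.58.1, R 4.3.3). The 12 libraries entered 1 quasi-likelihood fit, and two-sided p-values were adjusted by Benjamini-Hochberg over these genes. DESeq2 1.42.0 served as an alternative. The standard error is the log2 fold change divided by the root of F. The common biological coefficient of variation was 12.9%. Replicates differed beyond counting noise (chi-square per degree of freedom 4.67 to 35.3 over 18 pairs). The steps were tested on simulated data. Lengths, overlaps and shared 100-base windows came from GENCODE M21, which held 99.8% of the gene identifiers.

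The members and the lists were chosen with earlier results of these data known. Every member is named. Per-library values are given for the catalytic and electron-carrying subunits, the c subunit genes, Bcs1l, the ATP synthase inhibitor, and the lowest and highest member of each complex in each comparison. Alternatives were other scalings, filters and tools, a replicate block, the genotypes in pairs, and each library left out in turn.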

Additional observations from a re-analysis of the deposited data

Results flagged for a closer look

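In 3 of 123 groups of 4 libraries, 1 WT library lay far from the other 3 by Dixon's test at the 95% level. Chance gives this in about 1 in 20 groups. Atp5l was at 57.5 CPM in WT1, where the nearest library had 43.1 CPM. Sdhaf4 was at 14.8 CPM in WT1, where the nearest library had 11.2 CPM. Cycs was at 17.5 CPM in WT3, where the nearest library had 14.9 CPM.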

How the results depend on the processing

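With each library left out in turn, 28 to 32 members were lower in TD than in WT and 26 to 30 lower than in TA. With TD1 and TD2 as the only TD libraries, added after seeing the data, 22 and 9 were. Without 11 members of uncertain counting, also added later, 23 and 21 of 25 were lower. Those left out were Atp5a1, Atp5g1, Atp5g2, Atp5h, Atp5j, Atp5o, Cycs, Sdhaf1, Sdhaf4, Uqcrc1 and Uqcrc2. Uqcrb was kept, although 8.89% of its transcript windows occur in other genes and 5.71% of its exon bases lie opposite Gm10767. No member was higher in any of these fits. In TA against WT 2 members were lower with no filter on low counts (Atp5d and Cyc1), and 0 to 4 with each library left out in turn, 4 of them without TA2. The cause was not tested. The replicate block gave 31, 0 and 28 members lower in the 3 comparisons, and correlations between libraries of the same number ran from -0.24 to 0.20, so the numbers were not taken to pair the samples. The median of all members stayed between -0.66 and -0.51 in TD against WT. The median of ATP synthase in TA ranged from -0.10 to 0.033, the latter without WT1.

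Over single members and alternatives, the test's outcome was kept in 690 and 670 values of TD against WT and TD against TA, a call was lost in 17 (8 members) and 34 (19 members), and 1 was gained in 13 and 13.

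Direction changed for 4 members that did not pass the test. With each library left out in turn, Cycs in TA against WT ran from -0.19 to 0.067, Sdhd in TA against WT from -0.093 to 0.035, and Bcs1l in TD against TA from -0.11 to 0.013. With library totals in place of TMM, Bcs1l was at 0.031 in that comparison. With TD1 and TD2 only, Sdhaf1 was at 0.053 against TA.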

Other observations

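Within complex III the small subunits (Uqcrb, Uqcrh, Uqcrq, Uqcr10 and Uqcr11) were set beside the core and electron-carrying subunits (Uqcrc1, Uqcrc2, Cyc1 and Uqcrfs1), a grouping made after the values were seen and given without a test. In TA against WT the log2 fold changes ran from -0.17 to 0.092 for the 5 small subunits and from -0.32 to -0.18 for the 4 others, so the ranges nearly met. Against TA, TD had -0.99 to -0.53 for the small subunits and -0.49 to -0.42 for the others. Against WT the ranges of TD were -1.08 to -0.66 and -0.73 to -0.62, which overlap.

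Exon length was set beside the size of change. The median of TD against WT was -0.084 over 1016 tested genes under 1000 exon bases and -0.11 over 1852 genes of 1000 to 2000 bases. It was -0.048 over 2319 genes of 2000 to 3000 bases and 0.044 over 9929 genes of 3000 bases or more. For the members it was, in the same order, -0.70 over 5 genes, -0.58 over 11, -0.62 over 7 and -0.52 over 13. The part of length in the members' change was not tested.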
